A study of Mus musculus with 9 samples.

Results

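Nefl, Nefm, Nefh, Ina, Tuba4a and Thy1 are 6 of the 32661 gene entries counted in single neurons of the developing mouse ventral midbrain, and encode neurofilament subunits, an alpha-tubulin and a cell surface protein of mature neurons. The genes were picked by symbol with earlier results on the same plates known, and the wells were selected on 3 measured values: at least 2000 genes, at most 50000 counts and under 15% mitochondrial counts, with spike-in RNA left out of the first 2. These limits kept 2035 of 3455 wells. Of the others, 1378 had too few genes, 37 too many counts and 5 too many mitochondrial counts, and no test was run on the values used to select wells.

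The cells came from VGAT-Cre:Ai14:Pitx3-GFP mice, collected before birth, at embryonic stage E16.5, and just after it, at postnatal stage P0.5. VGAT-Cre is active in cells that express the vesicular GABA transporter and switches on the red protein tdTomato from the Ai14 allele for good, so that tdTomato marks a GABAergic history and not present VGAT expression. Pitx3-GFP marks the midbrain dopaminergic (mDA) system. Cells with tdTomato filled 4 plates at E16.5 and 3 plates at P0.5 (VGAT plates, 1460 cells kept), and cells with both tdTomato and GFP filled 1 plate at each stage (VGAT+Pitx3 plates, 575 cells kept). All groups carry the same 3 alleles, and there was no group of unlabelled cells.

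The replicate was the plate. No label says that plates of a group came from separate animals, so the p-values below measure the spread between plates, which may be technical. The kept cells of a plate numbered between 44 and 305 and held between 1435494 and 5408180 counts, and 1 plate stood apart: VGAT P0.5 replicate 1 held 44 cells with a median of 34751 counts per cell. The names of the cells carry a second plate label, which gives another stage than the first for 4 of the 9 plates. The first label matches the sample titles and was used. Pitx3 lay between 0 and 0.370 CPM (counts scaled to a common total, as given with the levels) on the VGAT plates and at 141 and 74.5 on the VGAT+Pitx3 plates, so that the sort, though not the stage, had a check in the data. The GABAergic markers Slc32a1, Gad1 and Gad2 together reached between 1576 and 2089.7 CPM on VGAT plates.

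Neurofilaments are the intermediate filaments of axons. They are built from a light (Nefl), a medium (Nefm) and a heavy subunit (Nefh) together with alpha-internexin (Ina), which forms filaments early in development, before the others become abundant, and they set the calibre of large axons. Nefl forms the core of the filament, and Nefm and Nefh carry the long side arms that project from it. Tuba4a is an alpha-tubulin of microtubules that is known from mature neurons, and its gene does not encode the final tyrosine that most alpha-tubulin genes do. Thy1 is a small immunoglobulin-like protein held in the neuronal membrane by a lipid anchor, and is known to appear as neurons mature.

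In the GRCm38 assembly Nefl (ENSMUSG00000022055) lies on the forward strand at chr14:68083863-68089095 and Nefm (ENSMUSG00000022054) on the reverse strand at chr14:68082590-68124846. They share 1108 exonic bases, through a long Nefm transcript of 4 exons that runs across the Nefl gene, while the main Nefm transcript of 3 exons at chr14:68119283-68124846 does not reach it. Whether the counting used strand is not given in the sources used here, so reads from the shared bases cannot be told apart between the 2 genes. Nefh (ENSMUSG00000020396) lies at chr11:4938754-4948064 on the reverse strand, Ina (ENSMUSG00000034336) at chr19:47014698-47025327 on the forward strand, Tuba4a (ENSMUSG00000026202) at chr1:75214228-75219865 on the reverse strand and Thy1 (ENSMUSG00000032011) at chr9:44043384-44048579 on the forward strand. Nearly all counts of each gene were exonic, with a mean over 9 plates between 97.1% and 99.4%.

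The reference table of RefSeq promoters (GRCm38.p6) matched 2 of the 6 genes, Tuba4a and Ina. They are shown because their levels moved in opposite directions between the stages, as given further on. Capitals mark the GC box, the letters GGGCGG on either strand, which is the motif bound by Sp1. The Tuba4a window was cut to the 131 bases outside annotated exons (chr1:75219295-75219425, reverse strand), and the Ina window covers the 250 bases at chr19:47014431-47014680 on the forward strand.
Tuba4a: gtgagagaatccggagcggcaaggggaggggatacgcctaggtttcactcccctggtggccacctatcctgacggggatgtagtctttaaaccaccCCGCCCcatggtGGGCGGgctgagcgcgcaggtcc
Ina: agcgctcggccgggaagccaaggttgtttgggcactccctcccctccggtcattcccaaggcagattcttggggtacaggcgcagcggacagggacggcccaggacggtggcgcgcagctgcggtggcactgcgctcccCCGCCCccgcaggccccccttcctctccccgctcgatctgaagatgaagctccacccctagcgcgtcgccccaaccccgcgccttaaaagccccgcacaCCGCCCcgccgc
Each window held 2 GC boxes. A GC box was present in 27.4% of 32851 promoter windows cut to 131 bases and in 32.7% of those of 250 bases. The TATA box TATAAA, held by 6.85% and 12.4% of windows of these lengths, and CCAAT, held by 22.5% and 33.8%, were searched on both strands and matched neither window.

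Levels were compared in CPM, the counts of a gene in a plate sum scaled to a common total of all genes, with library factors from trimmed means (TMM). The counts come from the 3' ends of transcripts, so a value is read across plates for 1 gene and not between genes. In a plate sum, fewer cells with an RNA and less RNA per cell cannot be told apart, and shares of cells are given for that reason.

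**Figure D1:**
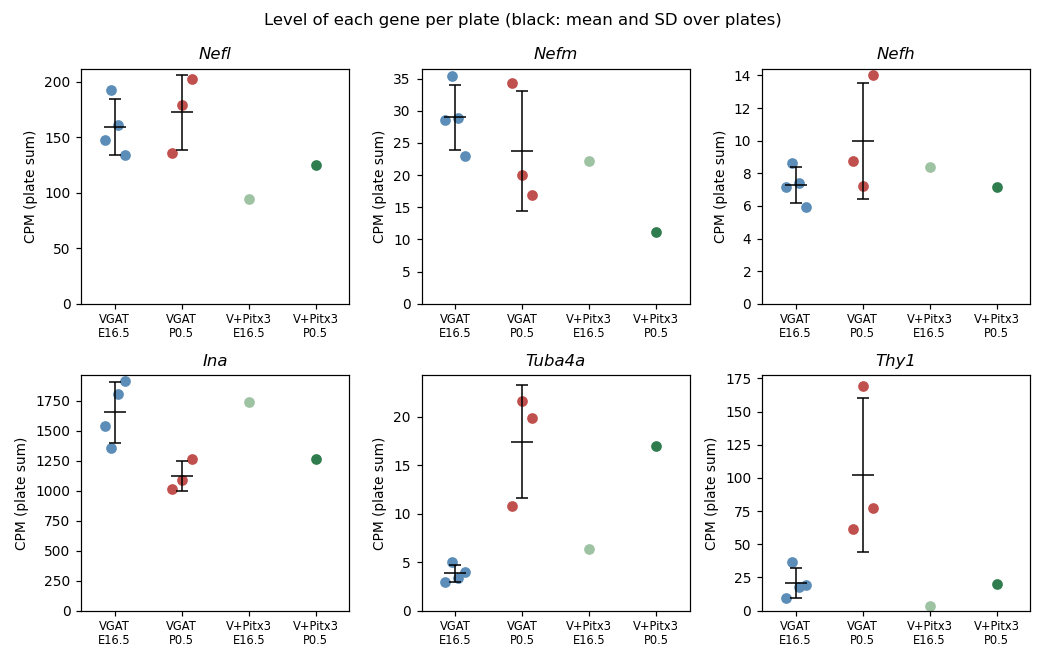
Level of the 6 genes on each plate, in CPM after TMM scaling on a separate axis for each gene, with points for plates and bars for the mean and SD of the VGAT groups. The VGAT P0.5 plates of Tuba4a and Thy1 lie above all VGAT E16.5 plates, those of Ina lie below them, and those of Nefl, Nefm and Nefh overlap with them.

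Between E16.5 and P0.5, Tuba4a and Thy1 rose and Ina fell in VGAT cells, while Nefl, Nefm and Nefh did not pass the test. Tuba4a was at 2.96, 5.05, 3.42 and 3.97 CPM on the 4 E16.5 plates and at 10.8, 21.7 and 19.9 on the 3 P0.5 plates. Thy1 was at 9.36, 36.7, 18.1 and 19.0 CPM at E16.5 and at 61.2, 169 and 77.4 at P0.5. Ina was at 1536, 1358, 1803 and 1913 CPM at E16.5 and at 1015, 1089.9 and 1259 at P0.5. The plates of the stages did not overlap for any of these 3 genes, but the share of all genes without such overlap was not counted. Of the 13639 genes tested, 3284 had an unadjusted p under 0.05 in edgeR's quasi-likelihood test. Replicate 2 was the highest plate of both stages for Tuba4a and Thy1.

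The mean of Tuba4a went from 3.85 ± 0.901 (SD, n = 4) to 17.4 ± 5.84 CPM (SD, n = 3), a log2 fold change of 2.20 with a standard error (SE) of 0.30 and an adjusted p of 0.00634 in edgeR's quasi-likelihood test. Thy1 went from 20.8 ± 11.4 to 102 ± 58.1 CPM, a log2 fold change of 2.29 (SE 0.38, edgeR adjusted p = 0.0113). The change was therefore 4.58-fold for the tubulin and 4.88-fold for the surface protein. Ina fell by 0.55 on the log2 scale (SE 0.14, edgeR adjusted p = 0.0477), from 1653 ± 252 to 1121 ± 125 CPM. With this, 3 of the 6 genes were called, beside 4.58% of the 13639 genes tested.

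The other subunits overlapped between the stages. Nefl was at 147, 193, 161 and 134 CPM at E16.5 and at 136, 179 and 203 at P0.5, a log2 fold change of 0.14 (SE 0.16, edgeR adjusted p = 0.63). Nefm was at 28.6, 35.4, 28.9 and 23.0 CPM at E16.5 and at 34.3, 19.998 and 16.9 at P0.5, a log2 fold change of -0.34 (SE 0.24, edgeR adjusted p = 0.41). Nefh was at 7.14, 8.60, 7.42 and 5.95 CPM at E16.5 and at 8.74, 7.22 and 14.02 at P0.5, a log2 fold change of 0.53 (SE 0.29, edgeR adjusted p = 0.28). Each of these genes had at least 1 P0.5 plate within the range of E16.5 and at least 1 outside it. The number of Nefl counts per Nefm count was between 5.16 and 5.83 on the E16.5 plates and at 3.96, 8.94 and 11.97 on the P0.5 plates, with a wider range at P0.5. Of the 51 Nefm counts of P0.5 replicate 1, 39 came from 1 cell, so that the place of this plate within the E16.5 range and its ratio of 3.96 rest on that cell. Without this plate the log2 fold change of Nefm was -0.67 (edgeR adjusted p = 0.0871).

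The calls of Tuba4a and Thy1 held with each of the 7 plates left out, at log2 fold changes of 2.03 to 2.41 and 1.73 to 2.71. That of Ina was kept without VGAT E16.5 replicate 2 (edgeR adjusted p = 0.0225) and lost without E16.5 replicates 1, 3 and 4 (0.0807, 0.134 and 0.125) and without P0.5 replicates 1, 2 and 3 (0.0886, 0.115 and 0.0817). It was also lost with cells thinned (0.0554) and with cells over 2 times the median count of their plate left out (0.0518). With a plate left out its log2 fold change stayed between -0.64 and -0.47. With the stage taken from the second plate label, edgeR called 1 gene in place of 624 and none of the 6, and the log2 fold changes of Tuba4a, Thy1 and Ina were -0.19, 0.49 and 0.31. Genes of astroglia and radial glia (5 of 5 found) summed to 37.5 to 82.9 CPM on E16.5 plates and 81.5 to 495 on P0.5 plates. The 495 was on P0.5 replicate 2, the plate with the highest Tuba4a and Thy1. The part of these glial genes in the result was not tested. A sum of cells with at least 1 count of Slc32a1, Gad1 or Gad2, an alternative chosen after seeing the data, kept 43 of 43, 192 of 194 and 167 of 169 thinned cells on the P0.5 plates and so could hardly differ, with a log2 fold change of 2.18 for Tuba4a, 2.23 for Thy1 and -0.56 for Ina.

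Cells were also compared at an equal depth, after each was thinned to 4000 counts (1956 of the 2035 cells). A count of Thy1 was found in 4.92%, 13.6%, 5.37% and 7.51% of the cells of the E16.5 VGAT plates and in 16.3%, 40.7% and 19.5% at P0.5. A count of Tuba4a was found in 1.09%, 1.32%, 0.336% and 1.02% of cells at E16.5 and in 9.30%, 7.73% and 5.92% at P0.5. Both shares were higher on each P0.5 plate than on any E16.5 plate, as were the levels. Shares of cells with Nefl overlapped, at 38.3%, 37.3%, 29.2% and 30.0% against 27.9%, 36.6% and 44.4%. Ina was found in nearly all cells, on average in 99.1% at E16.5 and 96.8% at P0.5.

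**Figure D2:**
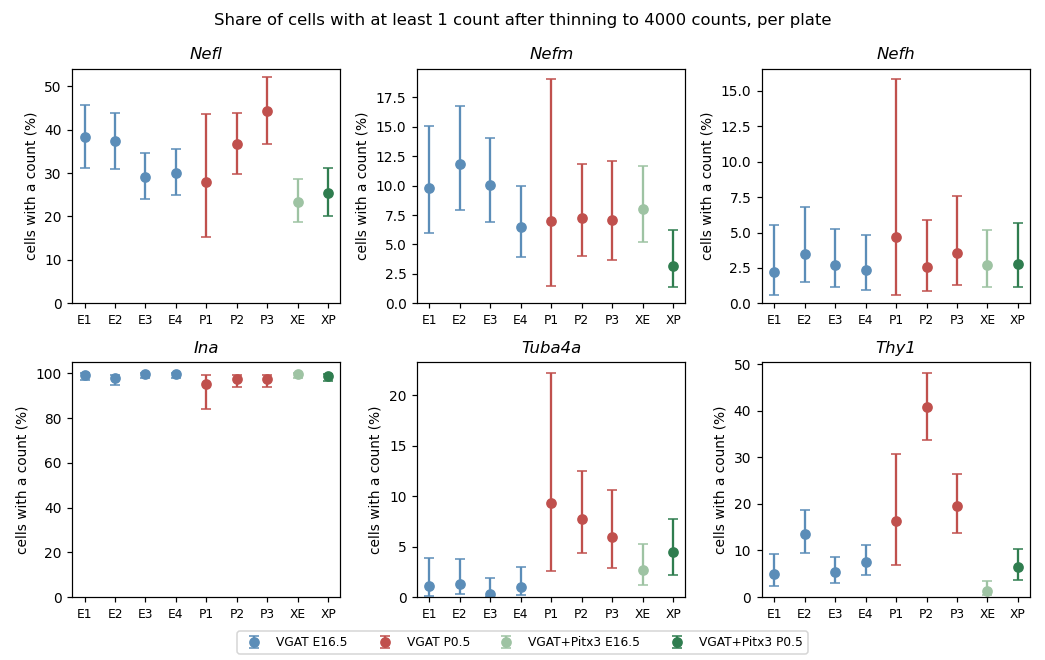
Percent of cells with at least 1 count of each gene after thinning to 4000 counts per cell, by plate (E1 to E4 and P1 to P3, VGAT plates at E16.5 and P0.5; XE and XP, VGAT+Pitx3 plates at E16.5 and P0.5), with 95% exact binomial intervals. Thy1 and Tuba4a were in more cells on each VGAT P0.5 plate than on any VGAT E16.5 plate, and Ina was in nearly all cells of each plate.

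Within VGAT cells thinned to one depth, the 10% of cells with the most Nefl held 54.3% of its counts at E16.5 and 49.6% at P0.5. For Ina that share was 21.8% and 21.4%. Such a share depends on the mean count of a gene, so it is read between the stages and not between the genes. The median VGAT cell at E16.5 had 6 counts of Ina and 0 of Nefl, and the highest had 23 and 9.

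As a measure that does not depend on depth or scaling, the share of each subunit in the summed counts of Nefl, Nefm, Nefh and Ina was compared. Ina made up 89.4%, 85.1%, 90.1% and 92.1% of these counts at E16.5 and 85.0%, 84.1% and 84.4% at P0.5. Nefl made up 8.57%, 12.1%, 8.06% and 6.46% at E16.5 and 11.4%, 13.8% and 13.6% at P0.5. Nefh made up 0.416%, 0.539%, 0.371% and 0.287% at E16.5 and 0.732%, 0.557% and 0.939% at P0.5. The shares of Ina and Nefh did not overlap between the stages, and that of Nefl overlapped through E16.5 replicate 2. In two-sided exact permutation tests over plates the differences in means were -4.70 percentage points for Ina (p = 0.0571), 0.34 for Nefh (p = 0.0571), 4.12 for Nefl (p = 0.114) and 0.24 for Nefm (p = 0.629). Adjusted over the 4 subunits by the Benjamini-Hochberg method, the exact p was 0.114 for Ina and Nefh and 0.152 for Nefl. The smallest p that 4 against 3 plates allow is 0.0571, so that no share could pass 0.05.

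**Figure D3:**
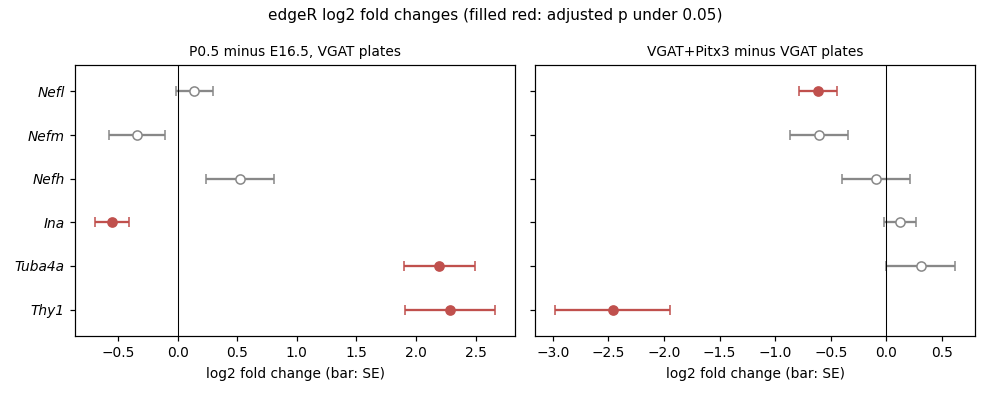
Log2 fold changes of the 6 genes (points) with their SE (bars) from edgeR, between the stages on VGAT plates (left) and between the sorts (right), filled in red where the adjusted p was under 0.05. Tuba4a (2.20) and Thy1 (2.29) lie highest in the stage comparison and Thy1 (-2.46) lies lowest in the comparison of sorts.

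Compared with VGAT cells, cells sorted for tdTomato and GFP had less Thy1 and less Nefl. Thy1 was at 3.39 CPM on the VGAT+Pitx3 plate at E16.5 and at 19.7 at P0.5, below every VGAT plate of the same stage. Nefl was at 94.5 and 125 CPM, below all 7 VGAT plates. With the stage in the model, Thy1 was lower by a log2 fold change of -2.46 (SE 0.52, edgeR adjusted p = 0.00606), which is 5.50-fold, and Nefl by -0.62 (SE 0.17, edgeR adjusted p = 0.0386), which is 1.53-fold. Thus 2 of 6 genes were called, beside 8.93% of 14624 genes tested. The dopaminergic markers (7 of 7 found, among them the dopamine transporter Slc6a3 and tyrosine hydroxylase, Th) summed to 5236 and 4027 CPM on these plates and to 63.4 to 144 on VGAT plates. The sorts differed in other markers too. The GABAergic list summed to 1128 and 1278 CPM against 1576 to 2089.7 on VGAT plates, and its genes went different ways. Gad1, an enzyme of GABA synthesis, was at 13.9 and 9.84 CPM against 798 to 1219, Gad2, the other such enzyme, at 898 and 997 against 494 to 632, and Slc32a1 at 216 and 272 against 156 to 333. Glutamatergic genes (3 of 3 found) summed to 104 and 201 CPM against 1.85 to 23.9. Genes of astroglia and radial glia summed to 150.3 CPM at E16.5, above the VGAT plates of that stage, and to 148 at P0.5, within their range. Of these, Fabp7 was at 119 and 78.8 CPM and Aldoc at 11.1 and 18.4, the latter below every VGAT plate. The part of these differences in the results of Thy1 and Nefl was not tested.

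The remaining genes did not pass between the sorts. Nefm was at 22.2 and 11.2 CPM on the VGAT+Pitx3 plates, with a log2 fold change of -0.61 (SE 0.26, edgeR adjusted p = 0.22). Nefh, at 8.37 and 7.18 CPM, had a log2 fold change of -0.10 (edgeR adjusted p = 0.93), and Ina, at 1737 and 1266 CPM, one of 0.12 (edgeR adjusted p = 0.77). Tuba4a, at 6.33 and 17.0 CPM, had 0.31 (edgeR adjusted p = 0.71). The P0.5 plate was thus again the lower one for Ina and the higher one for Tuba4a and Thy1, with 1 plate a stage. Thy1 was in 1.34% of thinned cells at E16.5 and 6.43% at P0.5 on these plates.

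The call of Nefl was lost without VGAT E16.5 replicate 1 (edgeR adjusted p = 0.0552), E16.5 replicate 3 (0.0565), P0.5 replicate 3 (0.0745), VGAT+Pitx3 E16.5 (0.407) or VGAT+Pitx3 P0.5 (0.102), and was also lost with cells thinned (0.0880), a minimum of 3000 genes (0.0887), cells over 2 times the median left out (0.0534) or the stage from the second label (0.115). Its log2 fold change stayed between -0.76 and -0.39. The call of Thy1 was lost without the VGAT+Pitx3 plate of E16.5 (log2 fold change -2.38, edgeR adjusted p = 0.0860) or P0.5 (-2.63, 0.107), or with the second label (-2.50, 0.270). Whether the stage effect differed between the sorts was tested with an interaction term. edgeR called 0 of 15724 genes (0%) and 0 of the 6, with 998 genes and 0 of the 6 at an unadjusted p under 0.05, while DESeq2 called 11 genes and 0 of the 6. The interaction of Tuba4a was -0.77 and that of Thy1 0.25 on the log2 scale, and adjusted p-values of the 6 genes were between 0.833 and 0.976 in edgeR.

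Slc6a3 splits the cells of the VGAT+Pitx3 plates, and both neurofilament genes on chromosome 14 were lower in the cells with it. After thinning, 147 cells had Slc6a3 and 152 did not at E16.5, and 112 had it and 137 did not at P0.5. With 1 plate a stage the values are a description without a test, and their 95% Poisson intervals cover counting error only. Nefl was at 42.2 CPM (34.5 to 51.1) in cells with Slc6a3 and at 148 (132 to 166) in cells without at E16.5. At P0.5 it was at 46.9 (34.8 to 61.8) and 189.8 (166 to 216). The level without Slc6a3 was thus 3.51 times that with it at E16.5 and 4.05 times at P0.5, and the intervals did not overlap.

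Nefm was at 6.03 CPM in cells with Slc6a3 and 39.0 in cells without at E16.5, and at 2.81, from 3 counts, and 17.6 at P0.5. Nefh went the other way at E16.5, at 11.7 CPM (7.81 to 16.8) with Slc6a3 and 3.80 (1.64 to 7.49) without, and its values at P0.5 were 7.503 and 5.04. Ina was at 1778 CPM with Slc6a3 and 1540.0 without at E16.5, and at 1372 and 1047 at P0.5. The subunits were therefore not lower together in these cells. Thy1 was at 4.02 and 2.38 CPM at E16.5 and, at P0.5, at 7.503 (3.24 to 14.8) with and 29.4 (20.5 to 40.9) without Slc6a3. Tuba4a was at 4.83 and 7.60 CPM at E16.5 and at 13.1 and 20.2 at P0.5. Cells with Slc6a3 had a median of 16427 counts and those without 13913 at E16.5, and 9077 and 8025 at P0.5.

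**Figure D4:**
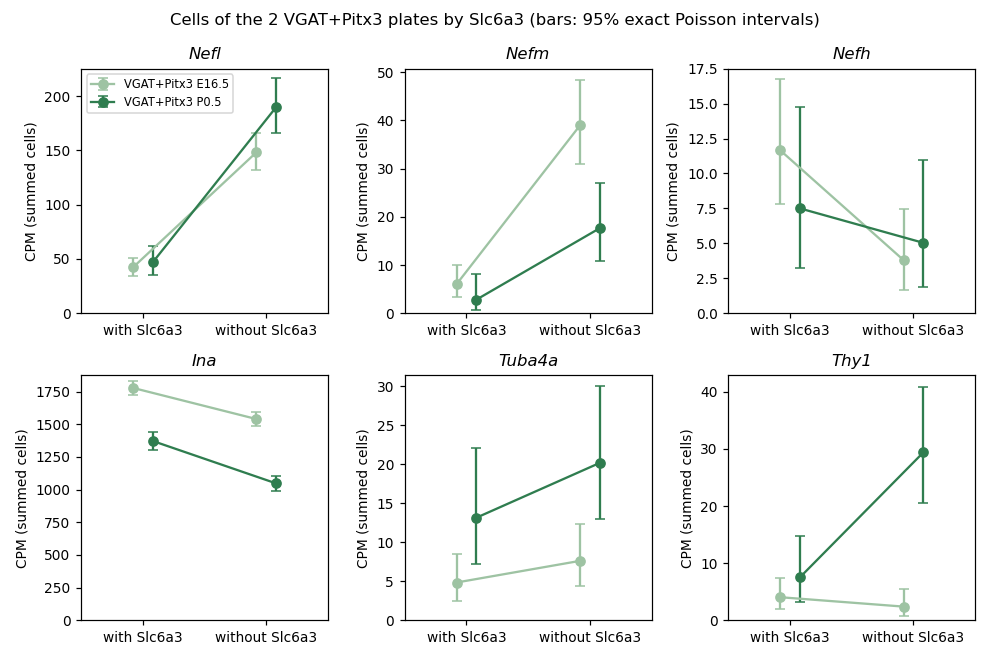
Level of the 6 genes in CPM with 95% Poisson intervals in cells of the VGAT+Pitx3 plates with and without a count of Slc6a3 after thinning, at E16.5 and P0.5. Nefl and Nefm were lower in cells with Slc6a3 at both stages, and Ina was not.

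VGAT cells were then divided by marker genes of regions, of which the Hox genes stand for a hindbrain position as textbook knowledge gives it. A cell had a marker when at least 1 count remained after thinning, so cells without it include cells in which it was missed. Sums of cells with and without the marker were compared with the plate as a block. The transcription factor Six3 was found in 541 thinned cells, Nkx2-2 in 308, Otx2 in 262, Pax5 in 236, the Dlx genes in 149 and the Hox genes in 27, and a cell could have several. All comparisons split the same VGAT cells, so cells with 1 marker also lie among the cells without another. Their results are therefore not independent of each other. With the filter on low counts, Tuba4a could not be tested in these comparisons and Nefh not in that of Otx2. Tuba4a entered some of the alternative fits, such as DESeq2, with an adjusted p of 0.449 or more.

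Cells with Six3 had more Nefl. It was at 159.6, 251, 246 and 198 CPM in cells with Six3 and at 139.8, 168, 101 and 111 in cells without on the 4 E16.5 plates. At P0.5 it was at 135, 222 and 286 with and 142, 149 and 168 without. Cells with Six3 were the higher ones on 6 of 7 plates, with P0.5 replicate 1 as the exception. The log2 fold change was 0.64 (SE 0.11, edgeR adjusted p = 0.00256), and 1 of the 5 genes tested was called beside 3.14% of 11451. Without the plate block the edgeR adjusted p was 0.0834.

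Cells with Pax5 had less Nefl and Nefm, and a call of Nefh in the same direction rested on few counts. Nefl was at 69.3, 120.2, 108 and 88.9 CPM with Pax5 and at 154, 209, 186 and 148 without at E16.5, and at 187 and 100.4 with and 183 and 208 without on P0.5 replicates 2 and 3. Nefm was at 3.85, 25.3, 12.2 and 9.30 CPM with and 30.8, 37.6, 36.5 and 26.8 without at E16.5, and at 5.76 and 10.0 with and 24.5 and 17.3 without at P0.5. Nefl was lower on 5 of 6 plates and Nefm on 6 of 6. The log2 fold changes were -0.69 for Nefl (SE 0.12, edgeR adjusted p = 0.000964), -1.33 for Nefm (SE 0.24, 0.00108) and -1.56 for Nefh (SE 0.42, 0.0291), the last from 12 counts in cells with Pax5. These were 3 of 5 genes tested, beside 6.08% of 11017. Thy1 did not pass (log2 fold change 0.58, edgeR adjusted p = 0.14), but did so without E16.5 replicate 3 (0.78, 0.0369). Ina had a log2 fold change of -0.07, so that its level was not lower in step with the others. The call of Nefh was lost in DESeq2 (adjusted p = 0.129), where 2 genes were called, and without E16.5 replicate 4 (edgeR adjusted p = 0.102) or P0.5 replicate 2 (0.0632), and without E16.5 replicate 3 it had too few counts to be tested. That of Nefl was lost without the plate block (edgeR adjusted p = 0.0530). With Pax5 found in any count of a cell (389 cells), 7 plates entered in place of 6, as P0.5 replicate 1 was added. The log2 fold changes were then 0.14 for Nefl (edgeR adjusted p = 0.723) and 0.05 for Nefm (0.996). In edgeR 0 of the 5 were called, beside 2.87% of 11365 genes. An unadjusted p under 0.05 was found for 2 of them, Nefh and Thy1, beside 1520 of the 11365 genes. The parts of the marker rule and of the added plate in this change were not tested.

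Cells with Nkx2-2 had less Nefl. It was at 71.1, 196, 117 and 89.9 CPM with Nkx2-2 and at 171, 194, 175 and 161 without at E16.5. At P0.5 it was at 126, 129 and 158 with and 146, 197 and 217 without. It was lower on 6 of 7 plates, and E16.5 replicate 2 showed nearly equal values. The log2 fold change was -0.55 (SE 0.12, edgeR adjusted p = 0.0126), and 1 of 5 genes was called beside 3.24% of 10689. The call was lost without E16.5 replicate 4 (edgeR adjusted p = 0.0581), when the marker was taken from any count (-0.26, 0.258) and without the plate block (-0.52, 0.269). Thy1 was higher on 6 of 7 plates without passing the test (log2 fold change 0.51, edgeR adjusted p = 0.0919). It passed when the marker was taken from any count (0.76, 0.00236) and without P0.5 replicate 2 (0.64, 0.0281).

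In the 3 remaining comparisons edgeR and DESeq2 called 0 genes of the 6. For Otx2 none of 4 tested had an unadjusted p under 0.05 in edgeR, beside 1696 of 10313 genes with such a p and 5.45% called. Without P0.5 replicate 1, though, Nefl was lower in cells with Otx2 (log2 fold change -0.55, edgeR adjusted p = 0.00169). For the Dlx genes 2 of 5 had such a p, beside 1034 of 10899 genes, with 1.69% called. For the Hox genes 1 of 5 had such a p, beside 606 of 11531 genes, with 0.312% called. The 1 of 5 was Nefl, at 38.6, 84.2 and 23.5 CPM in cells with a Hox gene and 155, 169 and 216 in cells without, lower on 3 of 3 plates. The log2 fold change was -1.86 (SE 0.37, edgeR adjusted p = 0.0895), from 20 counts. Without E16.5 replicate 3 it was -2.56 (edgeR adjusted p = 0.000767), from 5 counts on E16.5 replicate 1 and 3 on P0.5 replicate 3. Without E16.5 replicate 1 or P0.5 replicate 3, 0 of the 5 genes were called.

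**Figure D5:**
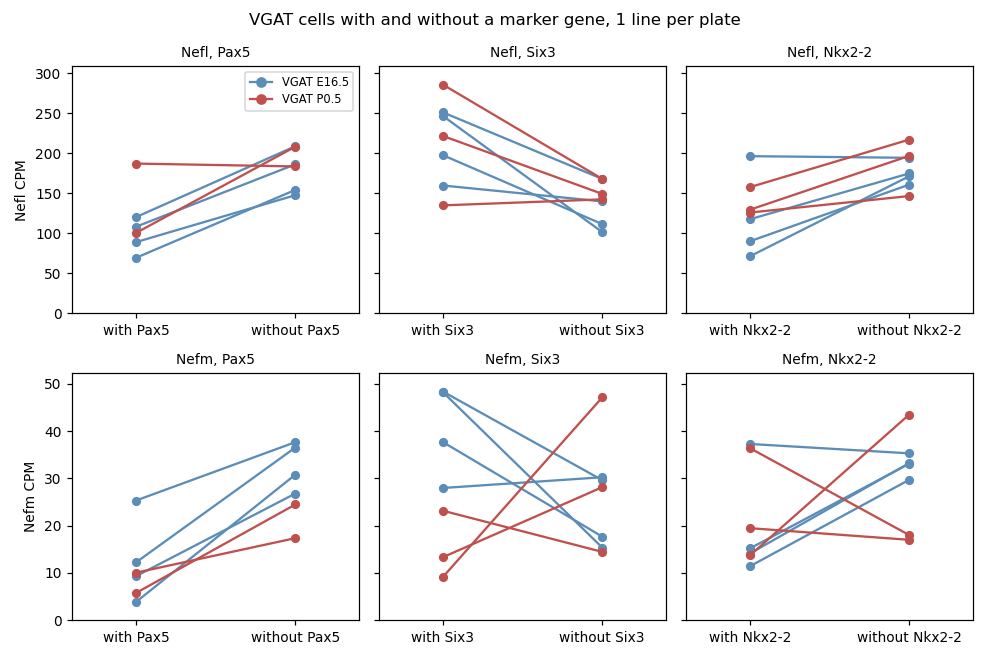
Level of Nefl (upper row) and Nefm (lower row) in CPM in VGAT cells with and without Pax5, Six3 or Nkx2-2, with a line for each plate in the colour of its stage. Nefl was higher in cells with Six3 on 6 of 7 plates and lower in cells with Pax5 on 5 of 6 and with Nkx2-2 on 6 of 7, and Nefm was lower with Pax5 on 6 of 6.

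Across the cells of a plate, Nefl and Nefm varied together more than any other pair of the 6 genes. The correlation of log counts per 10000, averaged over 9 plates, was 0.37 for Nefl and Nefm (0.22 to 0.49), and 0.22 after thinning to 4000 counts. That for Nefl and Ina was 0.15 and that for Tuba4a and Thy1 0.14, and after thinning they were 0.05 and 0.06, the latter positive on 3 of 9 plates. Cells of a plate share their library and differ in depth, and Nefl and Nefm share exonic bases, so these values are descriptions. Of 10741 genes found in at least 10% of the kept cells, those outside the 6 most like Nefl were Ndrg4 and Cend1 (both 0.25), and for Ina these were Map1b (0.27), Dcx and Elavl3 (both 0.24), a microtubule-associated protein, doublecortin and a neuronal RNA-binding protein. For Thy1 they were Sncb (0.21), which encodes beta-synuclein, Map1a (0.20) and Cplx1 (0.19). For Nefm, Nefh and Tuba4a the highest were Tmem132e (0.14), Mdh1 (0.13) and Eif3l (0.17).

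Other genes of the cytoskeleton and of the lipid-anchored class were taken from lists. Between the stages, 83 of 90 listed genes were tested, 11 of which rose and 1 fell, beside 4.58% of all genes called. Of 9 tubulins tested 3 rose: Tuba1b 2.02-fold, from 305 ± 44.8 to 609.9 ± 135 CPM (edgeR adjusted p = 0.0107), Tubb4b 1.63-fold (0.0137) and Tubb2a 1.61-fold (0.0256). The median log2 fold change of the tubulins was 0.37, against 0.02 over all genes tested. Of 12 lipid-anchored surface proteins 4 rose: Lynx1 2.93-fold (edgeR adjusted p = 0.0367), which binds nicotinic receptors, Ly6h 1.75-fold (0.0158), the axonal contactin Cntn2 1.49-fold (0.0352) and the prion protein gene Prnp 1.43-fold (0.0266).

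Of 13 genes of kinesins, dynein and cytolinkers, Dync1i1 (1.90-fold, edgeR adjusted p = 0.0202) and Dctn1 (1.60-fold, 0.0361) rose, which encode a subunit of the dynein motor and a subunit of its cofactor dynactin. Of 14 spectrin and axon initial segment genes Cntnap1, known from the paranodal junction, rose 1.71-fold (edgeR adjusted p = 0.0397). Of 19 microtubule-binding genes Stmn1 rose 1.47-fold (edgeR adjusted p = 0.0457) and Dcx, known from migrating neurons, fell by 0.51 on the log2 scale (0.0417). The median log2 fold change was -0.43 over 5 other intermediate filament genes and 0.11 over 11 genes of neurofilament kinases and turnover. Between the sorts, 3 of 83 were higher and 3 lower in VGAT+Pitx3 cells, a share no higher than the 8.93% called over all genes. The higher ones were the intermediate filament gene Vim (1.85-fold, edgeR adjusted p = 0.00330), the cytoskeletal linker Plec (2.65-fold, 7.66e-05) and the contactin gene Cntn1 (1.62-fold, 0.0104). The cell adhesion genes Ntm, Cntn4 and Opcml were lower, by log2 fold changes of -1.82 (edgeR adjusted p = 1.35e-05), -1.66 (3.35e-05) and -1.28 (0.00304). These 3 and Cntn1 belong to the 12 lipid-anchored surface proteins, which thus went both ways, with a median log2 fold change of -0.06.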

How the data were processed

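Single cells of the ventral midbrain were sorted into plates and profiled with SORT-seq, and plates are the replicates. Per the study's methods, the authors aligned reads that carried a well barcode with STAR to GRCm38 (mm10 in the submitters' processing notes) and counted exonic and intronic molecules, separately and together. The deposited unit, expected counts for each well and gene, corrected for molecules that share a molecular barcode and not scaled to depth, was read from the values: 99.98% of those above 0 were within 0.001 of that correction for a barcode of 6 bases. This is the length in the sample labels, while the methods give 4 bases. Values that were not whole were rounded after summing per plate. Whether the counting used strand is not given in the sources used here. The second plate label in the cell names was used only as an alternative.

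From these counts, wells were kept by the limits given above, and 92 spike-in and 34 mitochondrial of 32787 entries were left out. No doublet caller was run. Well barcodes recur on every plate by the design of the method and do not identify cells. Sums per plate went into edgeR's quasi-likelihood test (version 4.0.16, R 4.3.3) after TMM scaling and a filter on low counts by filterByExpr. P-values were adjusted over all genes tested by the Benjamini-Hochberg method at a threshold of 0.05. DESeq2 1.42.0 was an alternative. The models were sort with stage over 9 plates, stage over 7 VGAT plates, the interaction over 9 plates, and marker cells with the plate as a block on plates with at least 5 such cells. In the interaction, the lone VGAT+Pitx3 plate of each stage is assumed to vary like the VGAT plates. Further alternatives were RLE factors, no filter on low counts, exonic counts, thinned cells, a minimum of 3000 genes, cells over 2 times the median of their plate left out, and each plate left out. Intervals on shares of cells are 95% Clopper-Pearson intervals and cover counting error only. Tables were handled with pandas 2.3.3, scipy 1.17.1 and numpy 2.4.6 in Python 3.11.15, and figures drawn with matplotlib 3.10.9.

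The genes and lists were chosen with earlier results of these data known. From each list, genes past the threshold without overlap of plates are named, at most 4 a direction. Genes most like a member are those with the highest mean correlation within plates. The tests were tested on simulated data with 200 changed genes: at 2-fold, 76% were called in the stage comparison, 65% in that of sorts and 11% in the interaction, and at 4-fold 93%, 99% and 66%.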

Additional observations from a re-analysis of the deposited data

Results flagged for a closer look

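Within groups of 4 plates, the lowest or highest plate was compared with the rest by Dixon's criterion, in which chance marks about 1 in 20 groups. It marked 3 of 22 groups, each in VGAT cells at E16.5. The exonic share of Nefm was 98.03% in replicate 3 and 100% in the other plates. The exonic share of Tuba4a was 95% in replicate 4 and 100% in the other plates. These 2 shares rest on 3 intronic counts of Nefm and 1 of Tuba4a. With the other plates tied at 100%, any intronic count on 1 plate alone is marked, so the rate of 1 in 20 does not hold for them. The share of thinned cells with Ina was 97.8% in replicate 2, with the others between 99.5% and 99.7%.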

How the results depend on the processing

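Of the log2 fold changes recomputed under alternatives, 569 kept their direction and side of the threshold, 11 gained and 32 lost significance, and 29 changed sign. Between the sorts, 2 of the 6 genes were called, 1 with thinned cells, a minimum of 3000 genes, deep cells left out or the replicate block, 0 with the second plate label, and 0 to 2 with a plate left out, where edgeR called 625 to 1397 genes in place of 1306. Nefh changed sign with the block (0.021) and ranged from -0.55 to 0.19 with a plate left out, as Tuba4a did from -0.072 to 0.69. Between the stages, 624 genes became 959 in DESeq2, 1588 without the filter, 219 with the replicate block, 1 with the second label and 76 to 833 with a plate left out. The block between the stages also left out E16.5 replicate 4, which has no P0.5 plate of its number. Without that plate and with no block, edgeR called 130 genes. The second label called 0 of the 6 and gave -0.11 for Nefl, -0.50 for Nefh, 0.31 for Ina and -0.19 for Tuba4a. Nefl ranged from -0.0051 to 0.27 with a plate left out. Replicate numbers share no stated source, same-numbered plates correlated at 0.0251 to 0.0331, and 1 of 3 P0.5 plates lay nearest its own number, so the block is no paired design. With it, Nefl was -0.39 (edgeR adjusted p = 0.356) and Thy1 -1.55 (0.00155) between the sorts and Ina -0.47 (0.123) between the stages. The call of Ina was also lost, with no block, when only E16.5 replicate 4 was left out, the plate that the blocked fit lacks.

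For the interaction, DESeq2 called 11 genes and the fit without the filter 66, in place of 0. Nefl was -0.14 with thinned cells, Nefh 0.26, Ina -0.78 and Tuba4a 1.61 with the second label, and Thy1 -0.18 to 0.79 with a plate left out. The term cannot be estimated without a VGAT+Pitx3 plate. With the marker taken from any count, 0 genes in place of 3 were called for Pax5 (Nefl 0.14, Nefm 0.045), Thy1 was 0.32 for Otx2 and Nefh 0.15 for Nkx2-2. For Pax5 this fit also took in VGAT P0.5 replicate 1, which had too few cells with the marker after thinning. Without the filter 2 genes were called for Six3, Otx2 and Nkx2-2 and 1 for Dlx and Hox, and Ina was -0.091 for Nkx2-2. Without the plate block 0 were called for Six3 and Nkx2-2. With a plate left out, 0 to 1 were called for Otx2 and Hox and 0 to 2 for Nkx2-2. Nefm ranged from -0.029 to 0.82 for Otx2, Nefh from -0.20 to 0.065 and Ina from -0.019 to 0.025 for Nkx2-2, and Nefl from -0.073 to 0.58 and Thy1 from -0.39 to 0.11 for Dlx. Exonic counts gave -0.0045 for Ina in Nkx2-2. The difference in the share of Nefm among subunits was -0.27 to 0.60 points with a plate left out. The cause of these changes was not tested. Low counts limit Nefh and Tuba4a, and each stage had 1 VGAT+Pitx3 plate.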
